A study of Mus musculus with 4 samples.

Results

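The genes described here are 7 genes of cholesterol synthesis and its control, Hmgcs1, Insig1, Sqle, Fdft1, Srebf2, Idi1 and Lss, taken by gene name from the 19353 genes of a UMI count file of mouse muscle stem cells (MuSCs). Of the 7 genes, 5 encode enzymes of the pathway (Hmgcs1, Idi1, Fdft1, Sqle and Lss) and 2 encode proteins that control it (Srebf2 and Insig1). None of them encodes a lipoprotein receptor, so the genes of cholesterol uptake are given from a separate list. All mice were Pax7-CreERT2:Rosa-YFP animals that received 2 tamoxifen injections 24 h apart. In the sham group the skin over the hindlimb was cut and the tendons were left intact, and in the overloaded group the distal tendons of gastrocnemius and soleus were cut, which puts the load on the plantaris. MuSCs were sorted from the plantaris at 4 days after surgery by their yellow fluorescent protein (YFP) and collected in tubes of 100 cells. There were 2 CEL-Seq2 libraries from sham muscle and 2 from overloaded muscle. Cre was driven by Pax7, so YFP marked cells in which Pax7 was active at the time of tamoxifen, and any descendants of those cells. Age and sex of the mice were not given in the sources used here, nor whether replicate libraries stem from separate mice, so the p-values measure only the spread between these samples, which may be technical.

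Cells make cholesterol from acetyl-CoA through mevalonate, isoprenoid units and squalene, and take it up with lipoproteins. Both routes are under the control of SREBP2, the product of Srebf2. When sterols are scarce, SCAP escorts SREBP2 from the endoplasmic reticulum to the Golgi, where proteases release the part that enters the nucleus and activates genes of synthesis and uptake. When sterols are plentiful, INSIG proteins hold the complex back. Proliferating cells need cholesterol for new membranes.

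CEL-Seq2 reads transcripts at their poly(A) end and tags each captured molecule with a unique molecular identifier (UMI), and a count is thus a number of molecules. The libraries had 269683 and 260488 UMIs from sham muscle, and 387955 and 483528 UMIs from overloaded muscle. An overloaded tube therefore gave 3880 or 4835 UMIs per sorted cell, against 2697 and 2605 in the sham tubes. The 7 genes had 262 and 200 UMIs in the sham libraries, and 291 and 340 in the overloaded libraries. As counts per 1000000 UMIs, they summed to 971 and 768 in sham, and to 750 and 703 in overloaded muscle, with no scaling other than the library total. The deeper libraries give smaller counting error, and 3 of the 7 genes (Fdft1, Idi1 and Lss) had fewer than 20 UMIs in every library. All 10 of 10 satellite cell markers searched (Pax7, Myf5, Cdh15 and others) had enough counts to be tested, and Pax7 itself had 118, 107, 108 and 137 UMIs. So had 6 of 9 fibroblast markers and 6 of 8 myofiber markers, so enough counts alone do not identify the cells.

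Promoter sequences were found in the RefSeq table of GRCm38.p6 for 5 of the 7 genes, all but Sqle and Fdft1. SREBPs bind the sterol regulatory element (SRE), most often beside sites of NF-Y and Sp1. The 250 bases before each RefSeq start were searched on both strands for the SRE letters TCACNCCAC, for CCAAT (NF-Y), for GGGCGG (Sp1) and for CACGTG (E-box). Among all 32851 promoters of that table, 1.05% held the SRE letters, 33.8% held CCAAT, 32.7% held GGGCGG and 6.02% held CACGTG. Of the 5 promoters, only that of Hmgcs1 held the SRE letters, in the form TCACCCCAC (0.496% of all promoters), 137 bases before the start. All 5 held both CCAAT and GGGCGG, and Insig1 alone held CACGTG. The promoter of Hmgcs1 is shown because it has the SRE letters, and those of Insig1 and Srebf2 because they belong to the 2 control genes; the choice of the latter pair was made after their values were seen. All are on the plus strand of GRCm38, at chr13:119690101-119690350, chr5:28071162-28071362 and chr15:82147019-82147180, and the last 2 stop before the first annotated base of the gene, so that the 3 GGGCGG matches of Srebf2 nearest the RefSeq start are not shown. Capitals mark the matched letters, where ATTGG is CCAAT and CCGCCC is GGGCGG on the other strand.
Hmgcs1: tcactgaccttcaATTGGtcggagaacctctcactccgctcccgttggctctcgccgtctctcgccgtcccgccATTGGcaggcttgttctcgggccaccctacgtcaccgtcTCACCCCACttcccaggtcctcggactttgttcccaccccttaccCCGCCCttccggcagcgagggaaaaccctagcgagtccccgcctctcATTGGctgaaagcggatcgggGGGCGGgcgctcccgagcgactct
Insig1: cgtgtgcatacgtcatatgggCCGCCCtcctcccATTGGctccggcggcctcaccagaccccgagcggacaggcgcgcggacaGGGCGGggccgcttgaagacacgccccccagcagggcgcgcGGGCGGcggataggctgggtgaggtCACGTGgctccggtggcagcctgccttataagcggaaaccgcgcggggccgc
Srebf2: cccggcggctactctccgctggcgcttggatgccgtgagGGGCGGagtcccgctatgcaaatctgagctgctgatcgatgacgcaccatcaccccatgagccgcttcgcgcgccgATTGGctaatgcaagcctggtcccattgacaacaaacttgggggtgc
A match of letters is a description of the sequence and does not show binding. Only the letters given were searched, within 250 bases, so a promoter without a match is not shown to lack an SRE.

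The question was whether genes of cholesterol synthesis differ in level between MuSCs of overloaded and sham muscle. Levels are given as CPM, counts per 1000000 UMIs after scaling by TMM, a method that sets libraries to a common scale by the bulk of their genes. Relative to that bulk, Srebf2, Hmgcs1, Idi1 and Sqle fell in overloaded muscle, Fdft1 rose, Insig1 did not pass the test, and Lss had too few counts to be tested. A gene was called at an adjusted p under 0.1 in the quasi-likelihood test of edgeR, adjusted by Benjamini-Hochberg over the 7228 genes tested. By that rule 52.1% of all genes tested were called, 25.8% higher and 26.3% lower in overloaded muscle, so a call alone sets no gene apart. In such pooled cells, fewer cells of a type and less RNA per cell cannot be told apart. Because overloaded tubes held more UMIs, genes that were lower after TMM scaling were not always fewer per tube.

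Srebf2 (chr15:82147181-82205379, plus strand, GRCm38) encodes SREBP2, the transcription factor of the pathway. Its level was 348 and 344 CPM in the sham libraries, and 226 and 176 CPM in the overloaded libraries. Both overloaded libraries lay below both sham libraries. The mean was 346 ± 2.79 CPM (SD, n = 2) in sham and 201 ± 35.4 CPM (SD, n = 2) in overloaded muscle. Srebf2 fell by 0.80 on the log2 scale (SE 0.19, 95% interval -1.19 to -0.40, edgeR adjusted p = 0.00245). Of the 5 genes called, Srebf2 alone kept its call with each library left out in turn (log2 change -0.95 to -0.57) and in DESeq2 (adjusted p = 0.0583). In UMIs per tube it had 80 and 76 against 87 and 87, slightly more in both overloaded tubes. The annotated gene Gm49502, of the same strand, lies inside Srebf2 and had 5, 10, 4 and 3 UMIs.

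Insig1 (chr5:28071363-28078662, plus strand) encodes a protein that holds SCAP and SREBPs in the endoplasmic reticulum, and is itself a known target of SREBPs. It had 331 and 186 CPM in sham and 213 and 217 CPM in overloaded muscle. The overloaded libraries were nearly equal and lay between the sham libraries, so the groups overlapped. The log2 difference was -0.27 (SE 0.22, 95% interval -0.74 to 0.20, edgeR adjusted p = 0.345). This value rested on the first sham library, because it was 0.18 without that library and -0.66 (adjusted p = 0.0454) without the second. In UMIs per tube, 76 and 41 against 82 and 107, both overloaded tubes were higher.

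Hmgcs1 (chr13:119690379-119708260, plus strand) encodes the cytosolic HMG-CoA synthase, an early enzyme of the mevalonate pathway. It had 270 and 190 CPM in sham, and 161 and 160 CPM in overloaded muscle. The sham libraries differed from each other more than the lower of them differed from the overloaded libraries. Hmgcs1 fell by 0.52 on the log2 scale (SE 0.21, 95% interval -0.97 to -0.07, edgeR adjusted p = 0.055). The call was lost without the first sham library (-0.28, adjusted p = 0.495) and without the second overloaded library (-0.47, adjusted p = 0.151), as well as in DESeq2 (adjusted p = 0.334). As UMIs per tube, 62 and 42 against 62 and 79, the groups overlapped and the log2 difference was 0.44.

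Idi1 (chr13:8885501-8892451, plus strand) encodes isopentenyl diphosphate isomerase, which converts the basic isoprenoid unit into its reactive isomer. It had 43.5 and 49.8 CPM in sham, and 7.80 and 16.2 CPM in overloaded muscle. The sham libraries were close to each other and far above both overloaded libraries. Idi1 fell by 1.87 on the log2 scale, the largest fall among the 7 genes after TMM scaling (SE 0.48, 95% interval -2.91 to -0.89, edgeR adjusted p = 0.00414). It rested on 10 and 11 UMIs against 3 and 8, which were also fewer per tube, and the gene passed the filter on low counts only through the sham libraries, where it was high. The call was lost without the second sham library (-1.82, adjusted p = 0.115), without the first overloaded library (-1.48, adjusted p = 0.129) and in DESeq2 (adjusted p = 0.117).

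Fdft1, Sqle and Lss act one after another, from the first committed step of sterol synthesis to the first sterol. Fdft1 (chr14:63145150-63179578, minus strand) encodes squalene synthase. It had 17.4 and 4.53 CPM in sham, and 49.4 and 36.5 CPM in overloaded muscle. Both overloaded libraries were higher than both sham libraries, on 4 and 1 UMIs against 19 and 18. Fdft1 rose by 1.89 on the log2 scale (SE 0.58, 95% interval 0.71 to 3.15, edgeR adjusted p = 0.0124). It passed the filter on low counts only through the overloaded libraries. The call was lost without the second sham library (1.23, adjusted p = 0.201), without the first overloaded library (1.71, adjusted p = 0.187) and in DESeq2 (adjusted p = 0.174). The 3′ end of Fdft1, where CEL-Seq2 reads lie, overlaps Ctsb of the other strand by 774 bases, and Ctsb had 84, 61, 104 and 149 UMIs. Whether the counting used strand is not given in the sources used here, so reads of the 2 genes may not be told apart.

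Sqle (chr15:59315077-59331192, plus strand) encodes squalene epoxidase, a rate-limiting enzyme of the pathway. It had 117 and 122 CPM in sham, and 70.2 and 58.7 CPM in overloaded muscle. The replicates of each group were close and the groups were apart. Sqle fell by 0.90 on the log2 scale (SE 0.29, 95% interval -1.53 to -0.29, edgeR adjusted p = 0.0187). The call was lost without the second overloaded library (-0.73, adjusted p = 0.142) and in DESeq2 (adjusted p = 0.2). Its UMIs per tube were nearly the same in all libraries, 27 and 27 against 27 and 29.

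Lss (chr10:76531588-76557138, plus strand) encodes lanosterol synthase. It had 3 and 2 UMIs in sham and 11 and 12 in overloaded muscle, which is 13.1 and 9.06 CPM against 28.6 and 24.3 CPM. The overloaded libraries were higher, but the gene did not pass the filter on low counts. The mean CPM was 2.39 times that of sham, and the fit without a filter gave an adjusted p of 0.19. An antisense gene, 4930483K19Rik, covers the 3′ end of Lss.

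**Figure D1:**
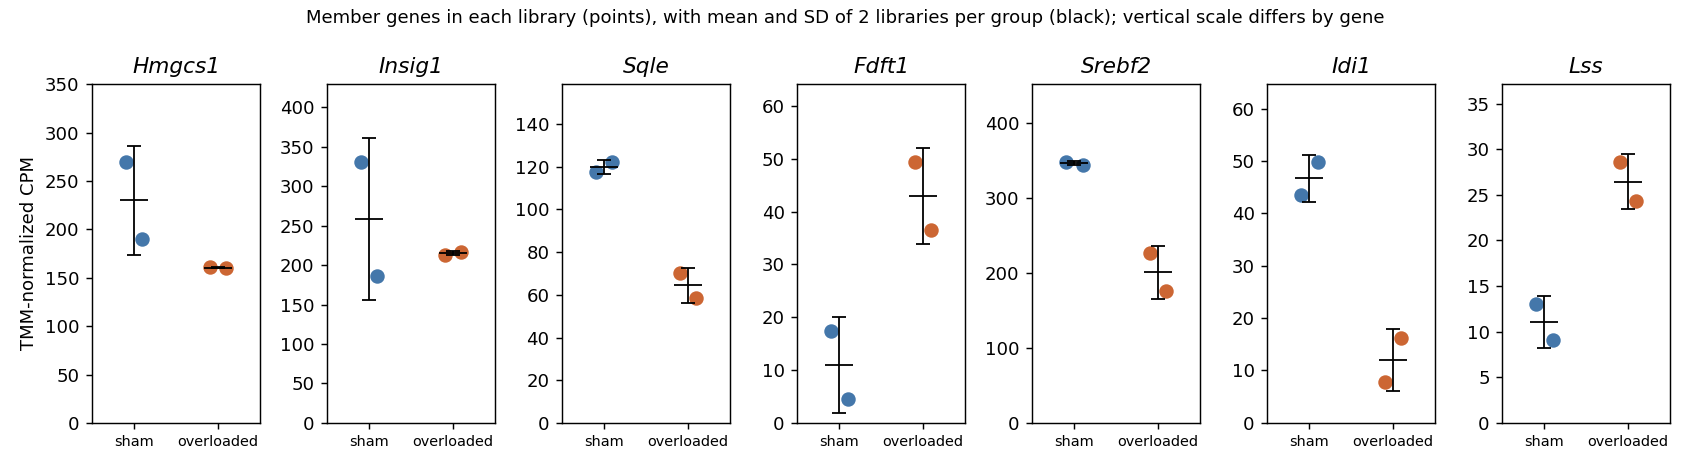
Level of each of the 7 genes in CPM after TMM scaling, for 2 sham libraries (blue) and 2 overloaded libraries (orange), with the mean and SD of each group in black and a separate axis from 0 for each gene. Srebf2, Sqle, Idi1 and Hmgcs1 are lower in both overloaded libraries, Fdft1 and Lss are higher, and for Insig1 the overloaded libraries lie between the sham libraries.

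Together, 6 of the 7 genes were tested, with 1 called higher and 4 called lower, where 25.8% of all genes tested were higher and 26.3% lower. These counts include Fdft1 and Idi1, which passed the filter on low counts only through the group where each was high. Their median log2 change was -0.66, against 0.05 over all genes tested. It was -0.37 with the abundance offsets described next and 0.30 as UMIs per tube. Without the first sham library the median was -0.28, but Lss (1.47) passed the filter there, so this median covers 7 genes and not 6. The CPM of the groups did not overlap for 5 of the 6 genes, 4 lower and 1 higher, and for 72.9% of all genes tested (35.4% lower and 37.5% higher). Changes across the transcriptome depended on abundance, as seen when the genes were put in 10 classes of nearly equal size by abundance. The median log2 change was 0.53 in class 1, of lowest abundance, and -0.74 in class 10. Fdft1 and Idi1 lay in class 1, Sqle in class 6 (median 0.13), Hmgcs1 in class 8 (median -0.09), and Srebf2 and Insig1 in class 9 (median -0.28). Offsets that removed this dependence called 23.2% of all genes higher and 23.5% lower. With these offsets Idi1 (log2 change -2.67), Sqle (-1.05) and Srebf2 (-0.40) were called lower, Hmgcs1 had -0.34 (adjusted p = 0.215), Fdft1 had 1.27 (adjusted p = 0.101) and Insig1 had 0.04 (adjusted p = 0.915).

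Without scaling, as UMIs per tube of 100 cells, the median log2 change of all genes was 1.01, and 62% of genes were called higher and 4.58% lower. On that scale Fdft1 (2.83) and Insig1 (0.69) were called higher, and none of the 7 genes was called lower. The values of Hmgcs1 (0.44), Srebf2 (0.16) and Sqle (0.05) were above 0 and that of Idi1 was -0.92. These 4 genes had been called lower after TMM scaling. As a plain share of all UMIs Hmgcs1 had 230 and 161 against 160 and 163 counts per 1000000, so that the groups overlapped. All of the tested genes but Fdft1 lay below the median of all genes on that scale.

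**Figure D2:**
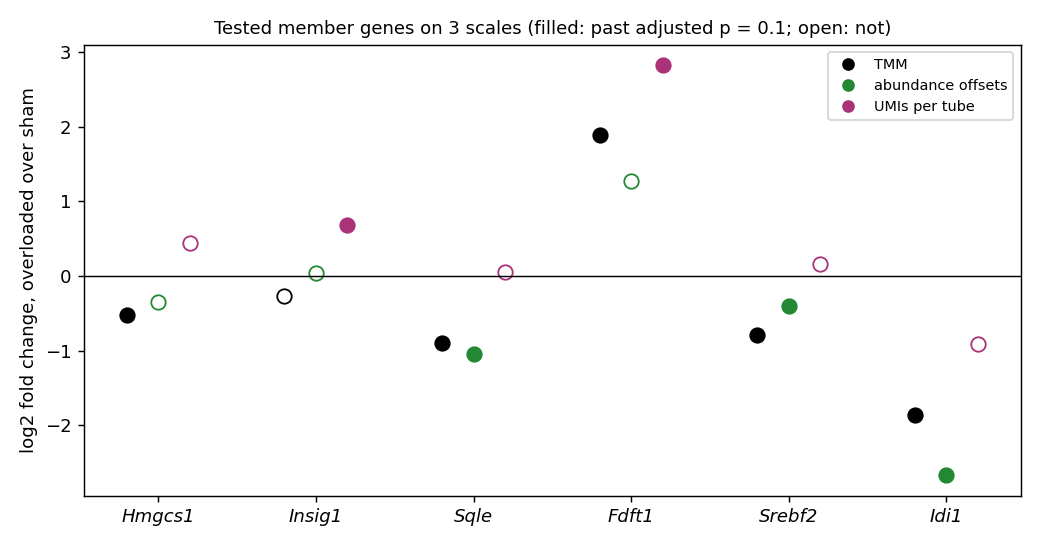
Log2 change, overloaded over sham, of the 6 tested genes after TMM scaling (black), with abundance offsets (green) and as UMIs per tube (purple), where filled points passed an adjusted p of 0.1. Idi1 is below 0 and Fdft1 above 0 on all 3 scales, while Hmgcs1, Sqle and Srebf2 are below 0 after TMM scaling and above 0 per tube.

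Of 23 enzymes listed from acetyl-CoA to cholesterol, with the tether Erg28 among them, 22 were in the file and 13 were tested, including 4 of the 7 genes above. Of the 13, 3 rose (Fdft1, Nsdhl and Erg28), 4 fell (Hmgcs1, Idi1, Sqle and Msmo1) and 6 did not pass, which is 23.1% higher and 30.8% lower, close to the 25.8% and 26.3% of all genes tested. The median log2 change of these 13 was -0.51, against 0.05 over all genes tested. It was 0.07 against 0.30 when the 22 were fitted without a filter, and 0.46 against 1.01 as UMIs per tube. With abundance offsets the median was -0.73 against 0.01. On that scale 1 of the 13 was called higher and 5 lower, where 23.2% and 23.5% of all genes were. Msmo1, which removes methyl groups from the sterol ring, fell by 0.89 (SE 0.25, adjusted p = 0.00787), from 183 and 150 CPM to 80.6 and 97.2 CPM, or from 42 and 33 to 31 and 48 UMIs per tube. This was the only call of the list that held with each library left out. Nsdhl, a dehydrogenase of the same demethylation, rose by 1.44 (SE 0.48, adjusted p = 0.0204), from 3 and 6 UMIs to 23 and 25. Erg28, which tethers these enzymes, rose by 1.25 (SE 0.48, adjusted p = 0.0416), from 7 and 3 UMIs to 17 and 30. Like Fdft1, both passed the filter on low counts only through the overloaded libraries, where they were high, and each call was lost with 2 of the 4 libraries left out in turn. In DESeq2 none of the 7 calls of this list passed, with adjusted p = 0.132 for Msmo1 and 0.214 for Nsdhl, while 2 of them had an unadjusted p under 0.05 there, as had 2289 of all genes tested.

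Enzymes tested that did not pass after TMM scaling included Cyp51 (-0.57), Hsd17b7 (-0.73), Sc5d (-0.51), Ebp (-0.04) and Lbr (0.11), on the log2 scale. With abundance offsets Cyp51 (-0.73, edgeR adjusted p = 0.0855) and Hsd17b7 (-0.91, adjusted p = 0.0471) were called lower. After TMM scaling, enzymes with too few counts for the test went both ways. Acat2 was lower in CPM (34.8 and 36.2 in sham, 26 and 18.2 in overloaded muscle), though not in UMIs per tube. Mvk, mevalonate kinase, had 1 and 1 UMIs in sham and 9 and 11 in overloaded muscle, a ratio of 5.13 after scaling (95% exact interval of counting error 1.25 to 45.3). Dhcr7, the last enzyme of one branch to cholesterol, had 0 and 1 against 5 and 10 UMIs, a ratio of 7.69 (interval 1.18 to 324). Mvd had 3 and 1 against 8 and 12 UMIs. Acat2 (8 and 8 against 10 and 9 UMIs), Pmvk (3 and 4 against 11 and 6), Fdps (3 and 1 against 7 and 1) and Tm7sf2 (0 and 1 against 1 and 1) were also not tested.

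**Figure D3:**
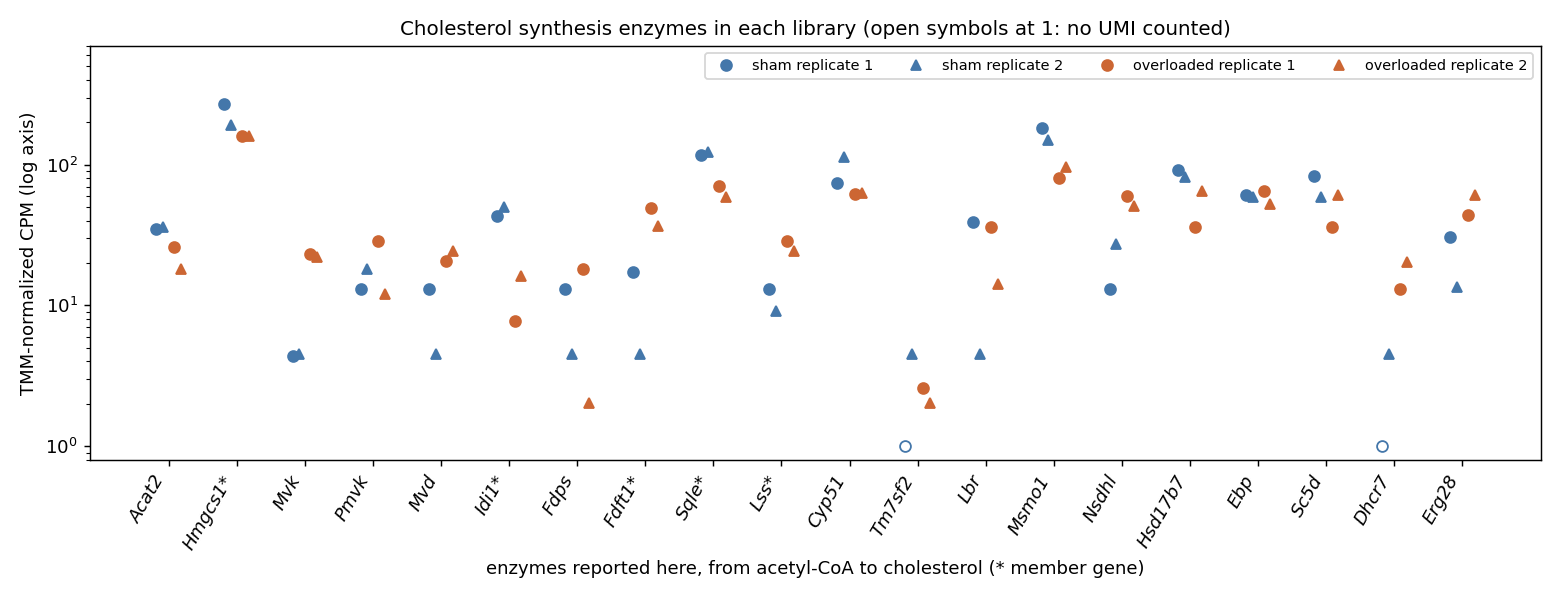
CPM after TMM scaling, on a log axis, of the enzymes of the list that are reported here, in the order of the pathway, in sham (blue) and overloaded (orange) libraries, where an open symbol at the bottom stands for a library with no UMI. Acat2, Hmgcs1, Idi1, Sqle, Cyp51, Msmo1 and Hsd17b7 are lower in both overloaded libraries, while Mvk, Mvd, Fdft1, Lss, Nsdhl, Dhcr7 and Erg28 are higher in both, whether or not they passed a test.

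Among the genes that control SREBPs, Insig2 and Srebf2 fell. Of 14 genes listed, 10 were tested, and 1 rose, 2 fell (Srebf2 and Insig2) and 7 did not pass, with a median log2 change of 0.24. That is 10% higher and 20% lower, no more than the 25.8% and 26.3% of all genes tested. As UMIs per tube 8 were higher and 0 lower, where 62% of all genes were higher. Insig2, the second retention protein, had 257 and 245 CPM in sham, and 143 and 126 CPM in overloaded muscle. It fell by 0.91 (SE 0.20, 95% interval -1.34 to -0.48, edgeR adjusted p = 0.00166), and the call held with each library left out (-0.98 to -0.77) and in DESeq2 (adjusted p = 0.0571). Its UMIs per tube overlapped, 59 and 54 against 55 and 62. Scap (0.73), Srebf1 (0.30), Rnf145 (0.38), Erlin1 (0.25) and Mbtps1 (-0.09) did not pass on the log2 scale. Mbtps2, Erlin2, Spring1 and Rnf139 were not tested, and Rnf139 had no UMI in sham and 5 and 2 in overloaded muscle, at least 1.20-fold higher if the sham group is set to a floor of 3 counts in all.

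Vldlr and Lrp1, receptors that take up lipoproteins, fell relative to the bulk of the transcriptome. Vldlr, the receptor for very-low-density lipoprotein, had 196 and 258 CPM in sham, and 80.6 and 89.1 CPM in overloaded muscle. It fell by 1.41 on the log2 scale (SE 0.24, 95% interval -1.91 to -0.91, edgeR adjusted p = 0.000152). Lrp1, a large endocytic receptor, fell by 1.22 (SE 0.19, adjusted p = 9.19e-05), from 505 and 557 to 276 and 186 CPM, and by 0.62 with the abundance offsets. For both receptors the overloaded libraries were lower also in UMIs per tube (45 and 57 against 31 and 44 for Vldlr, 116 and 123 against 106 and 92 for Lrp1), although no call was made on that scale. Both calls held with each library left out and in DESeq2 (adjusted p = 0.00479 for Vldlr and 0.000562 for Lrp1).

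In the whole list of uptake and trafficking, 12 of 17 genes were tested, with 2 higher, 5 lower and 5 not past. That is 16.7% higher and 41.7% lower, where 25.8% and 26.3% of all genes tested were. The median log2 change was -0.53. As UMIs per tube 3 were higher and 0 lower, and the median was 0.43 against 1.01 over all genes, below it as after TMM scaling. DESeq2 called 1 higher and 3 lower. Gramd1a, a sterol carrier, fell by 0.67 (adjusted p = 0.0843), with 21 and 31 against 25 and 39 UMIs per tube, and its call was lost with any library but the first sham library left out. Stard3, a sterol transfer protein of late endosomes, rose by 2.33 (SE 0.54, adjusted p = 0.00201) from 1 and 5 UMIs to 26 and 34. It passed the filter on low counts only through the overloaded libraries, where it was high. Npc2, which carries cholesterol inside lysosomes, rose by 0.71 (SE 0.23, adjusted p = 0.0191) and was lost without the first sham library (adjusted p = 0.356). Npc1 (-0.52), Stard4 (-0.54), Osbp (-0.36), Mylip (-0.25) and Lipa (0.42) did not pass. Scarb1 (3 and 1 against 8 and 18 UMIs), Gramd1b (5 and 10 against 4 and 9), Lrp8 (2 and 1 against 5 and 5) and Gramd1c (1 and 0 against 2 and 3) were not tested.

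Of 10 genes of efflux and storage, 9 were in the file and 4 were tested. Apoe, the apolipoprotein that carries sterols out of cells, had 1180 and 1169 CPM in sham, and 512 and 565 CPM in overloaded muscle. It fell by 1.12 (SE 0.16, edgeR adjusted p = 2.76e-05), but by 0.12 with the abundance offsets, where it was not called. Its UMIs per tube overlapped, 271 and 258 against 197 and 279. Soat1, which esterifies cholesterol for storage, rose by 0.75 (SE 0.23, adjusted p = 0.0136), from 109 and 109 to 195 and 174 CPM, and its DESeq2 adjusted p was 0.191. Nr1h2, a liver X receptor, fell by 0.57 (adjusted p = 0.0738), with 30 and 32 against 37 and 44 UMIs per tube, and was lost with any library left out, and the exporter Abca1 did not pass (-0.57, adjusted p = 0.338). Nr1h3, Abcg1, Ch25h, Cyp27a1 and Nceh1 had at most 7 UMIs in any library.

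**Figure D4:**
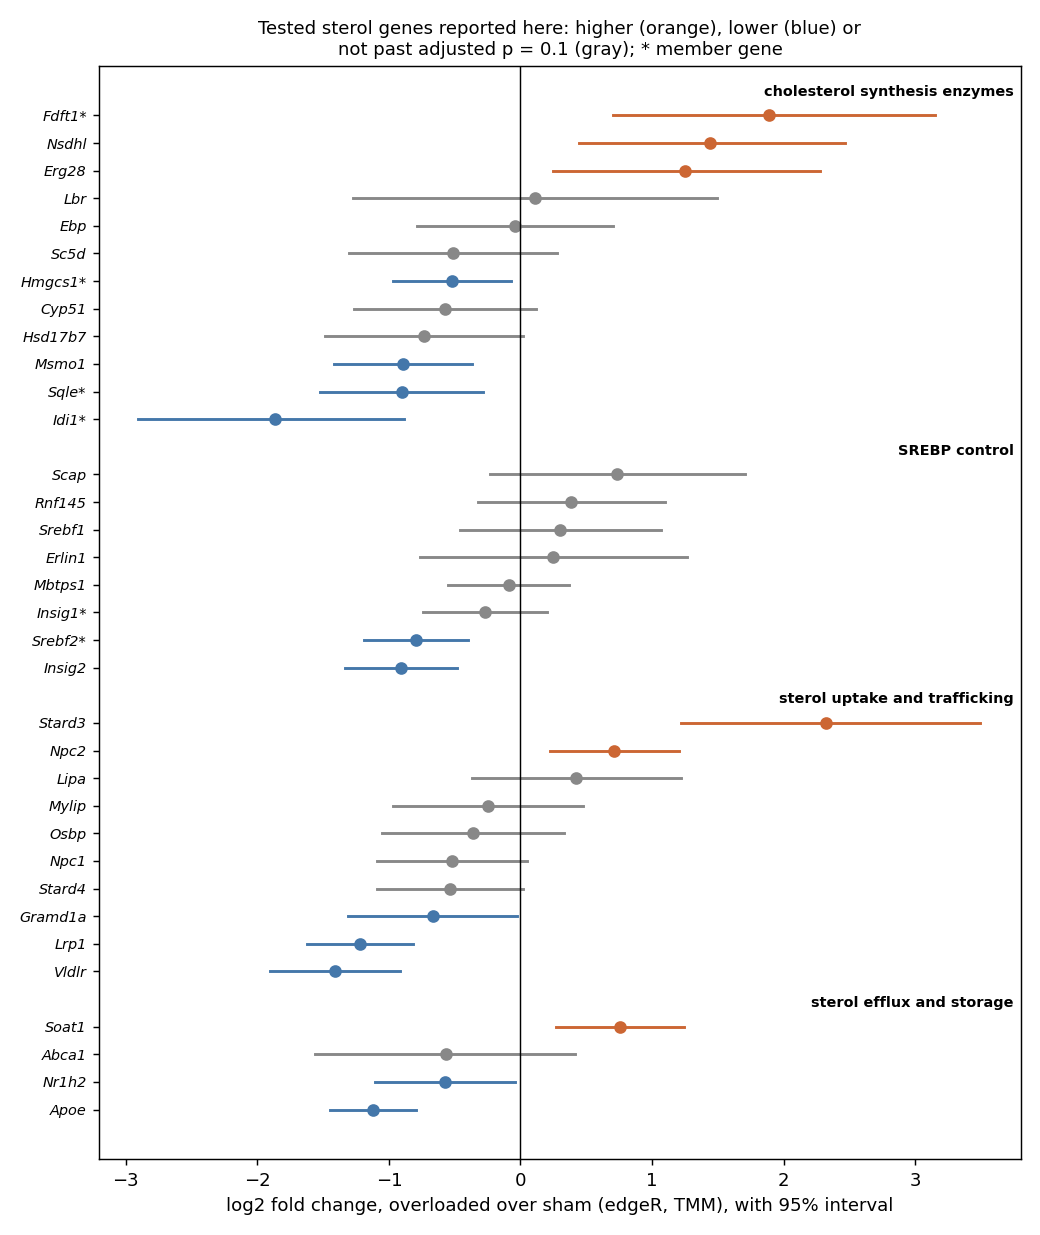
Log2 change, overloaded over sham, with its 95% interval, of the tested genes reported here of synthesis, SREBP control, uptake and efflux after TMM scaling, where orange is higher, blue lower and gray not past an adjusted p of 0.1. Lrp1, Vldlr, Srebf2, Insig2 and Apoe have narrow intervals below 0, while the intervals of Fdft1 and Stard3 are wide and above 0.

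Summed CPM of leukocyte, myofiber, mural, endothelial and cell cycle markers was higher in both overloaded libraries, and that of satellite cell markers was lower. Sums of fibroblast and of Schwann markers overlapped between the groups. Single markers did not always follow the sum of their list. The 14 leukocyte markers had 3 and 7 UMIs in sham and 90 and 237 in overloaded muscle, or 13.1 and 31.7 CPM against 234 and 480 CPM. Lyz2 was the most abundant (0, 0, 17 and 38 UMIs), and 9 of the 14, with Csf1r and Adgre1 among them, were at 0 in both sham libraries. The 8 myofiber markers summed to 1693 and 902 CPM in sham and 3091 and 2910 CPM in overloaded muscle, led by Acta1, and all 6 that were tested rose. Of the myosin genes, Myh4 had 10 and 5 against 145 and 79 UMIs, while Myh1 and Myh2 each had 0 and 0 against 0 and 2. Whether the RNA of these 8 markers came from myofibers or from the sorted cells was not tested. The 7 mural markers summed to 770 and 698 against 1204 and 1375 CPM, with Myh11 at 0 in 3 of the libraries. Acta2 alone had 501 and 494 against 926 and 998 CPM. Of the 3 mural markers tested, 2 were called higher and 1 lower, Tagln (log2 change -0.61, edgeR adjusted p = 0.0453). The 9 endothelial markers summed to 91.4 and 72.5 against 130 and 111 CPM, with Cldn5 at 0 in both sham libraries. The most abundant of them, Tek, was the only 1 tested and fell by 1.41 (adjusted p = 0.0154), while Cdh5 had 3 and 1 against 14 and 11 UMIs. The 9 fibroblast markers summed to 4414 and 4177 against 4282 and 3694 CPM, led by Col3a1, and the defining marker Pdgfra had 0, 0, 2 and 0 UMIs. Of these 9, 6 were tested and went both ways, with 2 higher (Ly6a, with 1 and 0 against 22 and 41 UMIs, and Col1a2, by 1.84) and 3 lower (Dpt among them, by 1.43). The Schwann markers had at most 7 UMIs in a library, and the adipocyte marker Plin1 had 1 UMI in all. The 10 satellite cell markers summed to 6856 and 5898 against 4410 and 3795 CPM, led by Sdc4. Of these, 7 were lower and 2 higher (median log2 change -0.90), where 26.3% of all genes tested were lower and 25.8% higher. With abundance offsets 4 were lower and 3 higher (median -0.12), and as UMIs per tube also 4 and 3 (median 0.04). Of 10 genes of cycling cells, led by Top2a, 9 rose, and the 10 summed to 200 and 231 CPM in sham and 1459 and 1426 CPM in overloaded muscle. Those with almost no sham UMIs, such as Mki67 (0 and 2 against 70 and 53), could pass the filter on low counts only through the overloaded libraries. The same holds for Ly6a. Pcna, with 40 and 34 against 48 and 63 UMIs, did not pass the test (log2 change -0.38, edgeR adjusted p = 0.184). Macrophages, a kind of leukocyte, also express Apoe, Npc2 and Soat1. The part of these cells in the values of the sterol genes was not tested. Total UMIs were made equal in 1 alternative, where counts were thinned to the smallest library. There Srebf2 (log2 change -0.81), Sqle (-1.065), Idi1 (-1.76) and Hmgcs1 (-0.50) were called lower. Insig1 had -0.22 and was not called, and Fdft1 was not tested.

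For each tested gene of the 7, the gene outside all lists with the most similar pattern over the 4 libraries was found from the root mean square difference of centred log2 CPM, among tested genes whose mean count was 20 or more per library. The nearest were Kansl1 for Srebf2 (0.01), Tmed5 for Sqle (0.02), Sat1 for Hmgcs1 (0.02), Abca8a for Idi1 (0.04), Sfxn3 for Fdft1 (0.04) and Rpl5-ps2 for Insig1 (0.05). Kansl1 had 58 and 54 UMIs in sham and 62 and 61 in overloaded muscle, the same near-constant count per tube as Srebf2. Sfxn3 had 10 and 4 against 45 and 42 UMIs, with the same low second sham library as Fdft1. With 4 libraries, close matches are easily found.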

How the data were processed

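The cells were MuSCs sorted by YFP, 100 to a tube, and 4 CEL-Seq2 libraries were compared, 2 sham and 2 overloaded. The authors extracted UMIs with UMI-tools (v.1.0.0), mapped reads to GRCm38 with HISAT2 (v.2.1.0), assigned them to genes with featureCounts (v.1.6.4), and deposited UMI counts per gene. The name of the deposited table calls the values UMI-normalized; they are whole numbers with a different total in each library, and were treated here as counts of molecules without further normalization. DESeq2 (v.1.22.2) is also named in the submitters' processing notes. The annotation release and strand setting are not given in the sources used here. Depth was 260488 to 483528 UMIs per library.

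Here the counts as deposited were scaled by TMM and tested with glmQLFTest of edgeR (v.4.0.16, R v.4.3.3), without covariates, after filterByExpr (minimum count 10, minimum total 15), which left 7228 genes. Fold changes used a prior count of 0.125. Intervals of ratios with 1 to 3 sham UMIs are exact (Clopper-Pearson, 95%), and floors are 3 counts over the group; both cover counting error only. The test was tried on simulated data. Coordinates and overlaps are from GENCODE M21 (all 19353 identifiers matched), and promoters from RefSeq.

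Alternatives were DESeq2 (v.1.42.0), limma-voom (limma v.3.58.1), other scalings (DESeq2 size factors, upper quartile, library sizes, UMIs per tube, loess offsets of span 0.3), other filters, an adjusted p of 0.05, a replicate block, thinning to the smallest library, and each library left out. Named were the 7 genes, genes of the 4 sterol lists, the 2 largest rises and falls past the threshold in other lists, and the most similar gene for each of the 7. The members and lists were chosen with earlier results of these data known. Some genes of the lists are counted in the totals but not reported here by name.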

Additional observations from a re-analysis of the deposited data

How the results depend on the processing

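Of 99 results of single genes of the 7 under alternatives, 74 kept their direction and side of the threshold, 18 lost the call, 1 gained it and 6 changed sign. Each result is in 1 class, and a change of sign was counted first. The 6 thus hold Hmgcs1, Sqle and Srebf2 as UMIs per tube, which also lost their calls, and Insig1 on that scale, which was called higher. The 74 include 4 results of Lss, which had no main test and kept only its direction. As UMIs per tube the log2 changes were 0.44 for Hmgcs1, 0.69 for Insig1, 0.052 for Sqle, 0.16 for Srebf2 and -0.92 for Idi1, with 2 of the genes higher, 0 lower and a median of 0.30, with 5 synthesis enzymes higher and 0 lower, and with 4481 of all genes higher and 331 lower; this scale removes no difference in UMIs between tubes. With abundance offsets, values were -0.34 for Hmgcs1, 0.036 for Insig1 and 1.27 for Fdft1, with 0 of the genes higher, a median of -0.37 and 1 enzyme higher. DESeq2 gave -0.52 for Hmgcs1, -0.90 for Sqle, 1.95 for Fdft1 and -1.93 for Idi1, none of them past the threshold, with 0 of the genes higher and 1 lower, 0 enzymes higher and 0 lower, and 762 of all genes higher and 1049 lower, the cause of which was not tested. Hmgcs1 also lost its call with library sizes alone (-0.28), upper-quartile factors (-0.43), no filter (-0.44) and an adjusted p of 0.05 (-0.52). The median of the genes was -0.41 with library sizes alone, -0.44 with no filter (19353 genes tested, Lss included; 5 enzymes higher) and -0.81 when thinned, where 0 of the genes were higher because Fdft1 was not tested. Library sizes alone moved the split of all genes from 1868 higher and 1898 lower to 2558 and 1396. Asking for 10 or more counts in both libraries of either group kept 7572 genes. With each library left out, a lone library being assumed to vary like those of the other group, log2 changes ranged from -0.79 to -0.28 for Hmgcs1, -0.66 to 0.18 for Insig1, -1.002 to -0.73 for Sqle, 1.23 to 3.10 for Fdft1, -0.95 to -0.57 for Srebf2 and -2.47 to -1.48 for Idi1, the genes called from 0 to 1 higher and 2 to 4 lower, their median from -0.79 to -0.28, and the enzymes from 1 to 2 higher and 3 to 4 lower, with a median of -0.71 to -0.28. Lss was tested only in the fits without 1 of the sham libraries, with values of 0.95 to 1.47 and no call. Both ends of the range of the median of the genes, -0.79 and -0.28, come from those fits and include Lss, unlike the main median. The medians of the other lists with a library left out may also cover other genes than the main medians, because the filter was applied anew in each fit. The study used the contralateral muscle as sham in other experiments, and whether sham and overloaded libraries share mice here is not given in the sources used; with 2 libraries a group the correlation of same-numbered deviations is a single value (-0.03), which cannot settle it; the replicate block gave -0.50 for Hmgcs1, -0.79 for Srebf2, 1806 of all genes higher and 1864 lower, and changed no call of the 7 genes. Changes resting on fewer than 20 UMIs per library, those of Fdft1, Idi1 and Lss, are limited by depth.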

Other observations

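Genes of fatty acid synthesis, several of them SREBP targets, went both ways. Of 12 listed, 10 were tested, with 4 higher, 2 lower and a median log2 change of 0.53 (edgeR, TMM), where 25.8% of all genes tested were higher and 26.3% lower. As UMIs per tube 7 were higher and 0 lower (median 1.49, against 1.01 over all genes), with abundance offsets 3 were higher and 3 lower (median 0.18), DESeq2 called 1 higher, and the median ranged from 0.29 to 0.89 with each library left out. Me1, which supplies NADPH, rose by 1.44 (SE 0.52, edgeR adjusted p = 0.0316) from 5 and 3 UMIs to 13 and 30. It passed the filter on low counts only through the overloaded libraries, and its call was lost with 2 of the 4 libraries left out in turn and in DESeq2 (adjusted p = 0.272). Scd2, a stearoyl-CoA desaturase, rose by 1.27 (SE 0.20, adjusted p = 7.14e-05), from 144 and 159 CPM to 346 and 383 CPM, and was the only call of this list that held with each library left out. Fasn, the fatty acid synthase, fell by 0.72 (SE 0.26, adjusted p = 0.0324), from 135 and 136 to 85.8 and 79.0 CPM, and Scd1 fell by 0.70 (SE 0.22, adjusted p = 0.0164). In UMIs per tube Fasn had 31 and 30 against 33 and 39, and Scd1 40 and 47 against 47 and 57. Scd1 and Scd2, desaturases of the same family, thus had log2 changes of opposite sign after TMM scaling, and the difference between them was not tested.

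Of 11 genes that use isoprenoids made by the mevalonate pathway, 5 were tested and 1 rose (20%, where 25.8% of all genes tested were higher), Nus1, a subunit of the enzyme that makes dolichol precursors (log2 change 1.28, SE 0.41, edgeR adjusted p = 0.0172), with 10 and 6 UMIs in sham and 25 and 52 in overloaded muscle. The call was lost without the second sham or the second overloaded library (adjusted p up to 0.174). None was called lower. The median log2 change was 0.16, and 0.39 with abundance offsets. With each library left out it was 0.33 to 0.64, but the filter was applied anew there and may have changed which genes were tested. As UMIs per tube the median was 1.12 (1.01 over all genes), and 4 genes were higher, as were 62% of all genes. DESeq2 called none (adjusted p = 0.167 for Nus1).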
